A study of Mus musculus with 20 samples.

Results

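The lysosomal cathepsins and their secreted inhibitor were followed across the macrophages of this study through 10 genes, chosen by name: Ctsa, Ctsb, Ctsc, Ctsd, Ctsh, Ctsl, Ctss, Ctsz, Lgmn and Cst3. All 10 were present in both scRNA-seq tables, which together list 16790 genes (15855 in the culture table and 15333 in the tumor table).

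The study compared macrophages that arise from B cells with those that arise from monocytes. B-MF were grown from BM B cells, and Mo-MF from BM monocytes, in medium conditioned by 4T1.2 cells, a mouse breast cancer line, with 2 libraries each. Per the study's methods the mice were young adult females, and 4T1.2 cancer was grown in BALB/cJ and μMT mice, the latter of which lack mature B cells. The methods name C57BL/CJ or BALB/CJ mice as donors of the cultured B cells. Which strain gave each library was not given in the sources used here. The tumor libraries, numbered 2 to 5 in the table, hold F4/80+CD11b+ cells sorted out of 4T1.2 tumors from 4 mice, and their numbers could not be tied to the sample labels, so each is given on its own. ATAC-seq, which maps open chromatin with a transposase, covered CSF1R+ and CSF1R- cells of BM and spleen in 3 libraries each. The labels call these cells macrophages, while the study's methods describe sorted B-cell precursors. Nothing in the labels says that libraries of a group came from separate cultures, so a p-value here measures only the spread between libraries, which may be technical.

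Cathepsins are proteases that digest proteins in the lysosome and, when secreted by macrophages, outside the cell. Cathepsins B, C, H, L, S and Z are cysteine proteases of the papain family, cathepsin D is an aspartic protease, cathepsin A is a serine carboxypeptidase, and legumain (Lgmn) cuts after asparagine and processes several cathepsins into their mature forms. Cystatin C (Cst3) is secreted and blocks papain-type cathepsins and legumain. In GENCODE's annotation of GRCm38 the papain-type genes lie apart: Ctsb at chr14:63122462-63145923, Ctsc at chr7:88278085-88310888, Ctsh at chr9:90054152-90076089, Ctsl at chr13:64359337-64370890, Ctss at chr3:95526786-95556403 and Ctsz at chr2:174427493-174439039. The others are Ctsa at chr2:164832873-164841032, Ctsd at chr7:142375911-142388038, Lgmn at chr12:102394084-102439813 and Cst3 at chr2:148871722-148875692.

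Of the 10 genes, 8 had at least 1 entry among the RefSeq promoters of GRCm38.p6 (10 entries in all), and Ctsb and Ctsh had none. Each entry runs from 250 bases before a start to 50 bases after it. The E-box CACGTG, searched on both strands, is the core bound by the MiT/TFE factors that regulate lysosomal genes, among other factors. It stood in an entry of Ctsa, Ctsd, Ctsl and Lgmn and in 7.15% of all 32851 promoters. Its longer form TCACGTGA, which contains CACGTG, stood in an entry of Ctsa and of Ctsd and in 0.974% of all promoters. GAGGAAGT, which holds the GGAA core of ETS-family sites, stood in Ctsc and Ctss and in 3.2% of all promoters. The entries of Ctsd and Ctsa are shown because they hold the long E-box, and those of Ctsc and Ctss because they hold the other motif. Another entry of Ctsa, at chr2:164832622-164832921, spans the gene's start in GENCODE and holds none of the motifs. The Ctsa entry shown lies inside the gene, past that start. The Ctsl and Lgmn entries with CACGTG likewise lie inside their genes, past the GENCODE starts. The motifs were chosen after the promoters had been read, so no enrichment is read from the shares. Capitals mark matches to the motifs on either strand, and a match says nothing about binding. Each is printed 5′ to 3′ on the gene's strand: Ctsd at chr7:142387778-142388077 (minus strand), Ctsa at chr2:164833523-164833822 (plus strand), Ctsc at chr7:88277835-88278134 (plus strand) and Ctss at chr3:95526536-95526835 (plus strand).
Ctsd: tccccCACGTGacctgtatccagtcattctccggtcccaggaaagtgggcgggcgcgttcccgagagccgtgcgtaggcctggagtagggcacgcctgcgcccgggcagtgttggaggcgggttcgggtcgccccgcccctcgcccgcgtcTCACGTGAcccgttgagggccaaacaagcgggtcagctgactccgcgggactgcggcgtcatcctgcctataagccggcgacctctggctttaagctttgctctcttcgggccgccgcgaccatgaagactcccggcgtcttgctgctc
Ctsa: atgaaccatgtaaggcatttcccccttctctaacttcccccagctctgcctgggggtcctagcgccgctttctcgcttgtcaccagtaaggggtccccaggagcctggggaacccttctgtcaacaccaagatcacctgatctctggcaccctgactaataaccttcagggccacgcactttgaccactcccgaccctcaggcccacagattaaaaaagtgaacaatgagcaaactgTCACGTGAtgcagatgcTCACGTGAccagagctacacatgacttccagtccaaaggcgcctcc
Ctsc: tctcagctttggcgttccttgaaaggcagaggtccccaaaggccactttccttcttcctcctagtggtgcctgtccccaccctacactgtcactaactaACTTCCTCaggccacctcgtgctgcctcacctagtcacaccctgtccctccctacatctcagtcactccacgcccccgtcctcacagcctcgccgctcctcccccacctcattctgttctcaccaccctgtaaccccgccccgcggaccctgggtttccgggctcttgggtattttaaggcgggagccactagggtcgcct
Ctss: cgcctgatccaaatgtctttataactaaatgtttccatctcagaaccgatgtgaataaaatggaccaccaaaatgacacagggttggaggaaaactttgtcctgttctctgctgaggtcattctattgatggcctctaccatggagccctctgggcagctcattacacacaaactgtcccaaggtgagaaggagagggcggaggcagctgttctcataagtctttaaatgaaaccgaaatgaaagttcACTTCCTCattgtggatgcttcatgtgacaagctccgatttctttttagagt

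The scRNA-seq values were turned back into corrected UMI counts per cell (unique molecule counts after SCTransform had set cells to a common depth). The culture libraries held 4846 to 5389 cells with a median of 18350 to 19469 corrected counts, and the tumor libraries 2318 to 3180 cells with 7651 to 8266. The culture and tumor tables were normalised separately, so no difference between them was tested. Clusters were named from marker genes and made without the 10 genes. Monocyte/macrophage-like cells were 99.6% and 99.7% of B-MF cells, 89.2% and 90.1% of Mo-MF cells, and 30.5% to 51.6% of the tumor libraries. Neutrophil-like cells were 10.4% and 9.61% of Mo-MF, 0.0573% and 0 of B-MF, and 35.6% to 62.5% of the sorted tumor cells, whose label is macrophage. All 8 macrophage markers were detected in every library, and Apoe was the highest of them in each. Their summed means were 282 and 293 counts per cell in B-MF, 590 and 600 in Mo-MF and 14.5 to 33.8 in the tumor. A sum does not give the direction of each marker. C1qa, 1 of the 8, was 21.9 and 20.4 in B-MF monocyte/macrophage-like cells against 11.1 and 10.8 in those of Mo-MF. The 6 B-cell markers summed to 0.104 to 0.13 counts in all 4 culture libraries, with Cd79b the highest in each. None of them was at 0 in B-MF, while 3 and 4 of the 6 were at 0 in Mo-MF libraries 1 and 2. Between 2 libraries of a table, 45 barcodes were shared in the cultures and 13 in the tumor, summed over pairs.

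The 10 genes together made up 373 and 374 of every 10000 counts in B-MF against 497 and 499 in Mo-MF. In the tumor libraries they made up 61.1 to 83.4 of every 10000. Levels of different genes are set side by side on the premise of 3′ UMI counts, which do not grow with transcript length. The study's methods give a 3′ kit, while the labels name a Chromium Genome kit. In B-MF the order from the highest mean was Ctsd, Ctsb, Ctsl, Cst3, Ctss, Ctsz, Lgmn, Ctsa, Ctsc and Ctsh. The neighbours Lgmn and Ctsa lay close in B-MF (25.2 and 25.5 against 24.5 and 24.9 counts per cell), as they did in Mo-MF (22.3 and 22.5 against 22 and 22.1). In Mo-MF Ctsl came first, at 302 and 309 counts, followed by Ctsd, Ctsb, Ctss, Cst3, Ctsz, Lgmn, Ctsa, Ctsh and Ctsc. Ctsh and Ctsc, the lowest of the genes in both cultures, thus held opposite places.

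**Figure D1:**
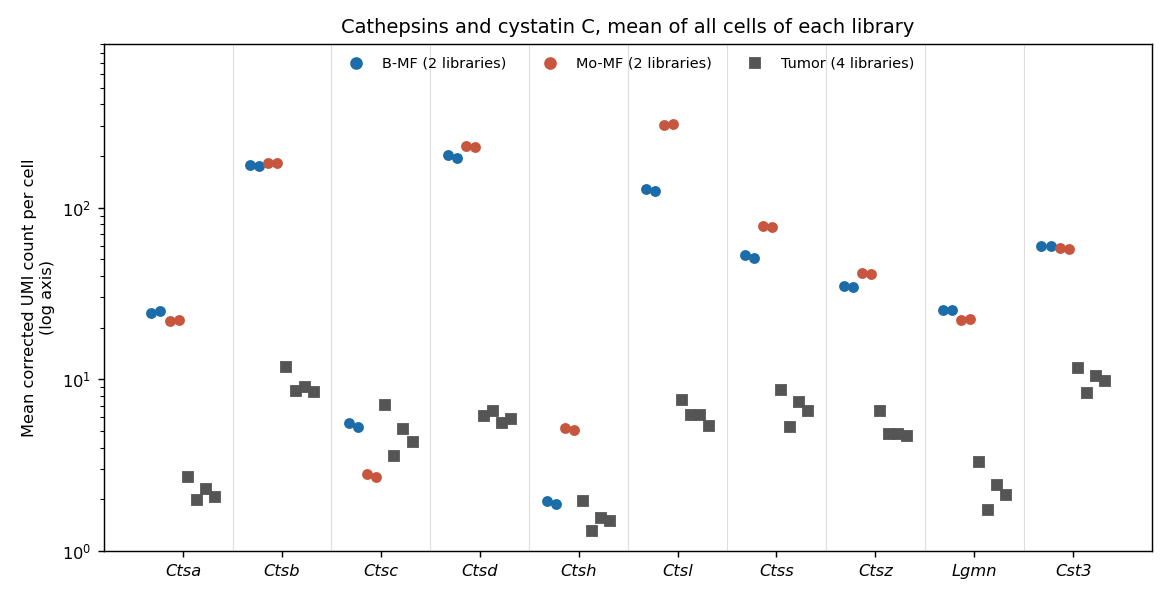
Mean corrected UMI count per cell on a log axis for each gene, with 1 point per library (blue circles for the 2 B-MF libraries, red circles for the 2 Mo-MF libraries, grey squares for the 4 tumor libraries). The 2 libraries of a culture lie close together, Ctsl, Ctsh and Ctss are higher in Mo-MF and Ctsc is higher in B-MF, and tumor values come from a separately normalised table.

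B-MF and Mo-MF differed most in Ctsh, Ctsl and Ctsc. By limma with Benjamini-Hochberg adjustment over 8633 genes, 3 of the 10 genes (Ctsa, Ctsc and Lgmn) were higher in B-MF, 5 (Ctsd, Ctsh, Ctsl, Ctss and Ctsz) were lower, and Ctsb and Cst3 did not pass. Of all genes tested, 39.5% passed, 22.6% higher in B-MF and 16.9% lower. That share was larger among well expressed genes. With testing limited to those averaging 1 count per cell or more, 78.3% of 2277 passed, 1157 higher in B-MF and 627 lower. All 10 genes lie above that level, so no excess of calls among them is read from the 39.5%. The median difference of the 10 genes was -0.12 on the log2 scale, and that of all genes 0.02. Mitochondrial genes took 7.92% and 7.7% of counts in B-MF against 5.07% and 5.24% in Mo-MF, and their part in these differences was not tested.

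Ctsl, an endopeptidase, was lower in B-MF. The library means were 128 and 126 counts per cell (B-MF) against 302 and 309 (Mo-MF), without overlap. The difference was -1.27 on the log2 scale (SE 0.0498, limma adjusted p = 5.9e-07, n = 2 libraries each), or 2.41-fold higher in Mo-MF.

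Ctsh, an aminopeptidase, was also lower in B-MF, at a far lower level. B-MF had 1.95 and 1.88 counts per cell, Mo-MF had 5.21 and 5.04, a difference of -1.37 (SE 0.0519, limma adjusted p = 4.96e-07). Counts of Ctsh were found in 63% and 64.8% of B-MF cells against 97.1% and 96.8% of Mo-MF cells.

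Ctss, which trims the invariant chain of class II molecules and stays active at neutral pH, was 52.9 and 50.9 counts in B-MF against 78.3 and 76.8 in Mo-MF. The difference was -0.58 (SE 0.0512, limma adjusted p = 6.04e-05). Ctsz, a carboxypeptidase, was 35.1 and 34.4 in B-MF against 41.8 and 41.3 in Mo-MF, and its difference of -0.26 (SE 0.0494) also passed (limma adjusted p = 0.00418). Both were lower in every B-MF library than in any Mo-MF library.

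Ctsc, which activates granule serine proteases by removing dipeptides from their ends, went the other way. Its mean was 5.59 and 5.29 counts in B-MF against 2.81 and 2.7 in Mo-MF. The difference was 0.96 (SE 0.0546, limma adjusted p = 4.96e-06), or 1.94-fold higher in B-MF, and counts were found in 94.2% and 94% of B-MF cells against 81.8% and 81.3% of Mo-MF cells.

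The other differences were small. Ctsd had 203 and 196 counts in B-MF against 229 and 227 in Mo-MF (-0.19, SE 0.0507, limma adjusted p = 0.0179). Ctsa, which also shields neuraminidase and beta-galactosidase in a complex, had 24.5 and 24.9 against 22 and 22.1 (0.16, SE 0.0492, limma adjusted p = 0.0299). Lgmn had 25.2 and 25.5 against 22.3 and 22.5 (0.18, SE 0.0491, limma adjusted p = 0.0219). The call of Ctsa was also lost with a pseudocount of 0.01 (limma adjusted p = 0.0574). These 3 calls rested on a spread shared across genes, and each was lost without Mo-MF library 1 and without Mo-MF library 2. The call of Ctsz was lost without Mo-MF library 1. Such fits leave 1 Mo-MF library, so their spread comes from B-MF alone. Over all alternatives the difference was -0.27 to -0.10 for Ctsd and 0.10 to 0.19 for Ctsa. It was 0.12 to 0.22 for Lgmn and -0.32 to -0.23 for Ctsz.

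Ctsb, one of the most abundant of the cathepsins here, was 177 and 174 counts in B-MF against 183 and 182 in Mo-MF. Its difference of -0.06 had a 95% interval of -0.17 to 0.05 (limma adjusted p = 0.38). Cst3, the inhibitor, was 59.7 and 59.5 against 58.5 and 57.8, a difference of 0.03 with an interval of -0.08 to 0.15 (limma adjusted p = 0.615). Both intervals span 0. Ctsb passed when only genes with a mean of at least 1 were tested (-0.06, limma adjusted p = 0.0487). Averaging the deposited log values turned Ctsb to 0.05, and there Cst3 passed (0.06, limma adjusted p = 0.0244).

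Neutrophil-like cells moved with the groups, so the comparison was also made in monocyte/macrophage-like cells. Neutrophil markers (5 genes) summed to 1.06 and 0.724 counts per cell in all B-MF cells, against 146 and 117 in all Mo-MF cells. In monocyte/macrophage-like cells 1 of the 10 genes (Ctsc) was higher in B-MF and the same 5 were lower, while 38.2% of 8595 genes passed, 20.9% higher and 17.2% lower. Ctsl differed by -1.36 and Ctsh by -1.43 there (limma adjusted p = 3.69e-07 and 3.95e-07), and Ctsc by 1.01 (limma adjusted p = 3.51e-06). Ctsa and Lgmn kept their sign at 0.10 and 0.12 but did not pass (limma adjusted p = 0.135 and 0.0844). Ctsb differed by -0.14 with a 95% interval of -0.25 to -0.02, which leaves out 0, though it did not pass (limma adjusted p = 0.0615). Cst3 differed by -0.01 (limma adjusted p = 0.897).

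**Figure D2:**
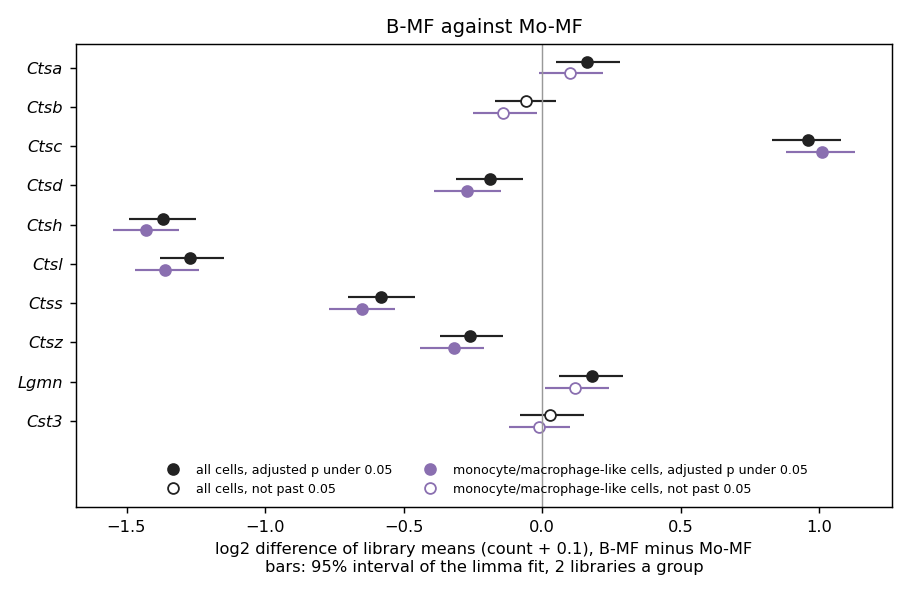
Difference of B-MF minus Mo-MF on the log2 scale for each gene, with bars for the 95% interval of the limma fit (2 libraries a group), in all cells (black) and in monocyte/macrophage-like cells (purple). Filled points passed an adjusted p of 0.05. Ctsc lies near 1, and Ctsh and Ctsl lie below -1. The intervals of Ctsb in all cells, of Ctsa in monocyte/macrophage-like cells and of Cst3 in both span 0.

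Within each culture the genes varied between clusters of macrophages, given here as a description because clusters come from the same cells. Ctsl was highest in the Mo-MF cluster led by Tceal7 and Arg1, at 522 counts per cell in both libraries. It was 152 and 143 in the cluster led by Rasgrp3 and Cdkn2a and 119 in both B-MF libraries in the cluster led by Cxcl5 and Nrg1, both clusters being nearly all of B-MF cells. In the Mo-MF cluster of Tceal7 and Arg1, Ctsc was at its lowest among macrophage clusters with 1.66 and 1.54 counts.

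Ctsc was highest in a small cluster, mostly of Mo-MF cells, that carried all 6 monocyte markers (135 cells), at 26.7 and 24 counts in the Mo-MF libraries, where Ctsd was 75 and 80.4. Between the 2 large B-MF clusters, Ctsc was 4.08 and 3.92 in the cluster of Rasgrp3 and Cdkn2a and 7.82 and 7.14 in the B-MF cells of that of Cxcl5 and Nrg1. Ctsd ran the other way, at 235 and 220 against 187 and 181. The cycling cluster, found in all 4 libraries, had 34.1 to 48.8 counts of Ctss and 44.3 to 50 of Cst3. A cluster led by Malat1 and Tsix, 6.26% and 4.73% of B-MF against 1.8% and 1.54% of Mo-MF, had low Ctsb (62.9 to 108) and low Cst3 (23.8 to 32.2). Mitochondrial genes took 19.5% to 23.8% of its counts in the 4 libraries, against 9.63% or less in the other clusters.

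Neutrophil-like cells of the Mo-MF cultures still showed the genes. Ctsd was 112 and 122 counts in them against 243 and 239 in monocyte/macrophage-like cells of the same libraries, and Cst3 39.9 and 42.4 against 60.7 and 59.5. C1qa, which neutrophils should lack, was 7.4 and 7.79 against 11.1 and 10.8, a ratio of 1.5 and 1.39 in favour of the macrophages. The ratio for Cst3 was 1.52 and 1.41, at the level of C1qa, and those for Ctsl were 2.77 and 2.22. Medians over cells lay further apart for Ctsl, at 45 and 57.5 in neutrophil-like against 277 and 282 in monocyte/macrophage-like cells, and for Ctsd, at 77 and 87.5 against 240 and 236. Those of Cst3 were 37 and 40 against 58 and 56, and those of C1qa were 2 in both classes of both libraries. The 90th percentiles of Ctsl in neutrophil-like cells were 337 and 404 beside means of 118 and 148, so a minority of them carried much of the mean. The part of free RNA in the neutrophil-like values was not tested. Ctsc alone of the 10 had a lower mean in the macrophages, at 2.71 and 2.61 against 3.72 and 3.54, while its median was 2 in both classes of both libraries and its 90th percentile 6 against 9 and 8.

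Genes that act beside the cathepsins were described from lists. Of 9 other lysosomal proteases that passed the filter in both cultures, 3 were higher in B-MF and 4 lower, beside 22.6% and 16.9% of all genes. Ctsk, the osteoclast collagenase, was 0.0936 and 0.108 counts in B-MF against 0.295 and 0.323 in Mo-MF (-1.03, limma adjusted p = 5.64e-06). Its B-MF values lie at the filter of 0.1. Ctse, an aspartic protease that passed the filter only through Mo-MF, was 0.0855 and 0.0804 against 0.292 and 0.253, with no fold read from it. Ctsf was 0.627 and 0.517 against 0.281 and 0.248 (0.88, limma adjusted p = 9.46e-05), and the dipeptidyl peptidase Dpp7 was 2.37 and 2.31 against 1.82 and 1.79 (0.36, limma adjusted p = 0.000794).

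Of 17 other cathepsin inhibitors, 11 were in the culture table and 7 passed the filter on low values. Of these, 5 were stefins that passed only through Mo-MF, where they are high, so no count, median or fold is read from them. BC100530 had 0.0563 and 0.000751 counts in B-MF against 13.9 and 10.9 in Mo-MF, and Stfa2 had 0.0313 and 0 against 5.28 and 4.18. Stefins are close copies of each other, so their counts are uncertain, and none of the 5 passed the filter in monocyte/macrophage-like cells. Cstb, a cytosolic inhibitor, was 18.4 and 18.9 against 27.9 and 27.8 (-0.57, limma adjusted p = 5.41e-05). Serpinb6a, an intracellular serpin, was 13.4 and 13.3 in B-MF against 9.73 and 9.85 in Mo-MF (0.44, limma adjusted p = 0.000225).

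Of 6 genes for mannose 6-phosphate tagging and sorting, which direct cathepsins to the lysosome, 1 was higher and 1 lower, again beside 22.6% and 16.9% of all genes. Nagpa, which uncovers the tag, differed by 0.46 (limma adjusted p = 0.000287) and the sorting receptor Sort1 by -0.34 (limma adjusted p = 0.00288). Of the 2 enzymes that sit in a complex with cathepsin A, Glb1 was higher (2.29 and 2.21 against 1.37 and 1.4, limma adjusted p = 2.62e-05) and Neu1 lower (1.86 and 1.83 against 2.16 and 2.16, limma adjusted p = 0.00874).

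Of 5 genes of the invariant chain and class II list, 4 were higher in B-MF, where 22.6% of all genes were, with a median of 0.43, while Ctss, which trims the invariant chain, was lower. Cd74, the invariant chain, was 4.14 and 3.66 counts in B-MF against 2.35 and 1.87 in Mo-MF (0.86, limma adjusted p = 0.000328). H2-Eb1 differed by 1.03 (limma adjusted p = 5.02e-06) and H2-DMa by -0.27 (limma adjusted p = 0.00422). H2-Eb1 did not pass when the deposited log values were averaged (0.03, limma adjusted p = 0.264). Counts of H2-Aa, a class II gene named here after its values were seen, were found in 9.26% and 8.41% of B-MF monocyte/macrophage-like cells, fewer than the 12.6% and 11.7% of Mo-MF, while its means were 1 and 0.918 against 0.754 and 0.629. Its median was 0 in all 4 libraries.

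Endosomal Toll-like receptors are cut by cathepsins before they signal. The list holds these receptors and Unc93b1, which is not itself a Toll-like receptor. Of 5 genes tested, with a median of 0.18, 2 were higher in B-MF (Tlr7 0.42 and Unc93b1 0.34, limma adjusted p = 0.000372 and 0.00119). Tlr13 was lower (-0.26, limma adjusted p = 0.00428). The shares of all genes were 22.6% higher and 16.9% lower. Of the 10 granule proteases listed as activated by cathepsin C, 3 were in the culture table and Prtn3 alone passed the filter on low values. It was lower in B-MF (0.117 and 0.0897 against 0.644 and 0.705, limma adjusted p = 5.23e-07), opposite to Ctsc. Its B-MF values lie at the filter of 0.1, and this 1 gene does not speak for the list. Of the 4 MiT/TFE factors, read against the same shares, Tfec (0.52, limma adjusted p = 0.00038) and Tfe3 (0.18, limma adjusted p = 0.0208) were higher and Tfeb (-0.30, limma adjusted p = 0.00981) and Mitf (-0.17, limma adjusted p = 0.0289) lower. The calls of Neu1, Mitf and Tfe3 were lost without either Mo-MF library, and those of H2-DMa, Tlr13 and Tfeb without Mo-MF library 1. Such fits leave 1 Mo-MF library. The call of Tfeb was also lost with no filter on low values (limma adjusted p = 0.0849).

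In the tumor, Cst3 and Ctsb had the highest means of the 10 genes over all cells. Cst3 was 11.7, 8.28, 10.4 and 9.83 counts per cell in libraries 2 to 5, and Ctsb 11.8, 8.59, 9.03 and 8.42. Library 2, which had the most monocyte/macrophage-like cells (51.6%), was the highest in 9 of the genes, while library 3, with the fewest (30.5%), had the highest Ctsd (6.52 against 5.55 to 6.09).

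Split by class, 9 of the 10 genes were higher in monocyte/macrophage-like than in neutrophil-like cells of all 4 libraries, and Ctsd was lower in all 4. Of 5780 genes, 70.1% were higher and 19.7% lower in all 4 libraries, so the count of 9 is to be read against that share. These are descriptions with no test. The gap was widest for Lgmn, with 5.13, 4.1, 4.76 and 4.72 counts in monocyte/macrophage-like cells and 0.445, 0.474, 0.452 and 0.523 in neutrophil-like cells, a ratio of 8.65 to 11.5.

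Ctsc and Ctsh followed. Ctsc was 10.1, 8.04, 8.99 and 9.03 in monocyte/macrophage-like cells and 1.24, 1.19, 1.44 and 1.2 in neutrophil-like cells. Ctsh was 2.77, 2.96, 2.59 and 2.97 against 0.352, 0.355, 0.357 and 0.376. Ctss, Cst3 and Ctsa had ratios of 5.57 to 6.14, 2.57 to 2.72 and 2.68 to 3.26. The narrowest gaps among the 9 were those of Ctsl (2.17 to 2.62), Ctsb (1.91 to 2.45) and Ctsz (1.6 to 1.94), except that in library 2 Cst3 (2.57) lay below Ctsl (2.62).

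Ctsd, the aspartic protease, was 5.99, 5.72, 5.68 and 5.22 counts in monocyte/macrophage-like cells and 7.33, 7.33, 6.4 and 7.02 in neutrophil-like cells, a ratio of 0.744 to 0.888. The classes did not overlap. C1qa, given as a measure of macrophage RNA in the neutrophil-like class, was 0.862 to 1.23 there and 2.49 to 8.1 in monocyte/macrophage-like cells. S100a8, a neutrophil gene, was 41.3 to 74.3 in monocyte/macrophage-like cells and 467 to 516 in neutrophil-like cells, and the part of free RNA was not tested.

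Among the monocyte/macrophage-like clusters, the cluster led by Cd163, Ccl8 and the C1q genes, which also held cycling cells, had the most Lgmn (6.53 to 8.59). Its averages of Ctsb (15.5 to 20.5) and Ctsz (6.85 to 10.3) were the highest too, with ranges that overlapped those of the cluster led by Sdc1 and Arg1 (14.4 to 16.8 and 6.36 to 7.03). That cluster had the most Ctsl (11.4 to 15.7). The cluster led by Adgre4 had the most Cst3 (14.2 to 18.5) and the least Ctsb (6.69 to 8.66), Ctsd (2.93 to 3.72) and Ctsl (3.18 to 4.24). Thus Ctsl, Ctsb and Ctsd were lowest in the cluster where Cst3 was highest. Its averages of Ctsc (7.49), Ctsz (5.52) and Lgmn (2.38) were also the lowest. Those of Ctss (13.4), Ctsa (4.14) and Ctsh (3.09) went the other way and were the highest among these clusters.

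Dendritic-like cells, 22 to 29 per library and led by Fscn1 and Ccl22, stood apart. Cst3 was 167, 112, 128 and 104 counts per cell in libraries 2 to 5, against 11 to 11.7 in monocyte/macrophage-like cells. Ctsh was 4.14 to 6.29. Ctsd was 0.0357 to 0.864 and Ctsl 0.107 to 0.909, and these genes, with Ctsa, Ctsb and Ctsc, were lowest in the dendritic-like of the 3 classes. Cd74 was the list gene with the most counts in both dendritic-like (24.2 to 50.6) and monocyte/macrophage-like cells (22.4 to 27.8), and BC100530, a stefin, had the most in neutrophil-like cells (35.8 to 57.3). A cluster of 686 cells led by Timd4, Siglech and Klk1, left unnamed, had mean counts of 27.3 to 48.3 for Cst3 and 15.4 to 17.3 for Ctss. All 8 macrophage and 4 of 6 monocyte markers were raised in this cluster. It was kept out of the monocyte/macrophage-like class because Siglech and Klk1 mark plasmacytoid cells. Its medians of Cst3 were 12 to 18 and its 90th percentiles 57.2 to 162, so a minority of cells carried the mean, while the medians of monocyte/macrophage-like cells were 9 and 10.

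**Figure D3:**
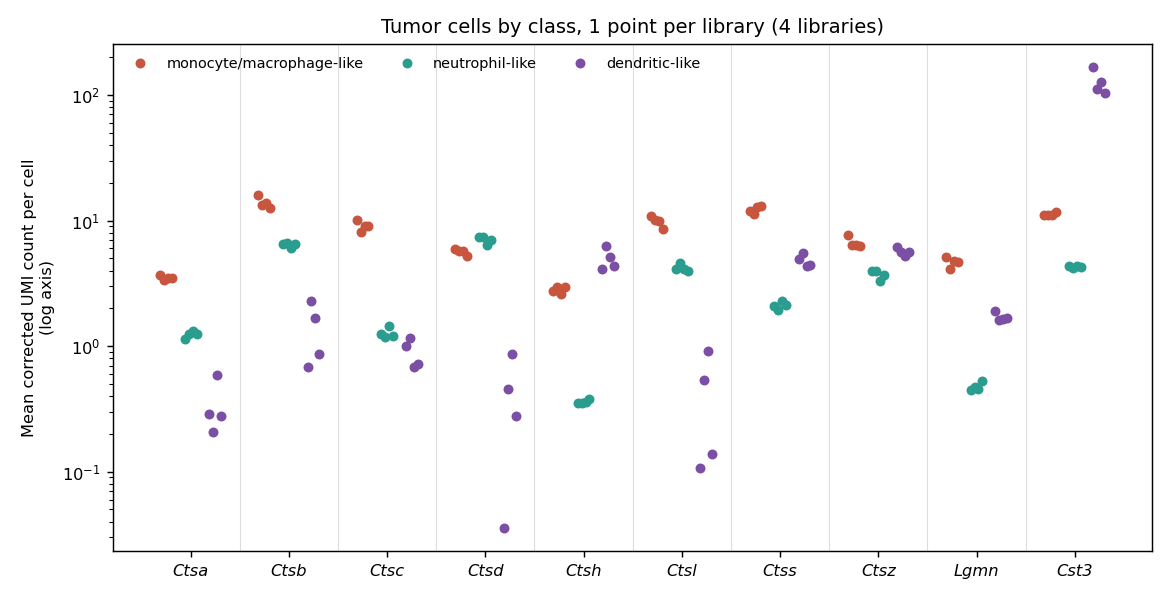
Mean corrected UMI count per cell on a log axis for each gene in 3 classes of tumor cells, with 1 point per library (4 libraries). Monocyte/macrophage-like points lie above neutrophil-like points for every gene but Ctsd, and dendritic-like points are highest for Cst3 and Ctsh and lowest for Ctsa, Ctsb, Ctsc, Ctsd and Ctsl.

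Co-expression was measured as Spearman's rho over the cells of a library for the 45 pairs of genes, as a description in which the cells of a library share depth and preparation. The median over pairs was 0.142 and 0.117 in B-MF, 0.261 and 0.244 in Mo-MF and 0.396, 0.306, 0.371 and 0.35 in the tumor. In monocyte/macrophage-like cells alone it was 0.134 and 0.11 in B-MF, 0.181 and 0.188 in Mo-MF and 0.117 to 0.162 in the tumor. The tumor values thus fell to the range of the cultures once other classes were left out. The correlation of the average level of the 10 genes with a cell's total count was 0.0249 to 0.216 in the cultures and 0.303 to 0.427 in the tumor, and 0.0129 to 0.155 in its monocyte/macrophage-like cells.

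The closest pair in all 4 culture libraries was Ctss and Cst3, a cathepsin and its inhibitor, at 0.605 and 0.647 for B-MF, with 0.607 and 0.626 for Mo-MF. Ctsl and Ctss (0.493 to 0.538) and Ctsl and Cst3 (0.421 to 0.487) were also close in both. Ctsb and Ctsd reached 0.514 and 0.575 in B-MF against 0.41 and 0.457 in Mo-MF. Ctsc and Ctsd had the lowest value in each culture library, from -0.297 to -0.214. By Pearson's r on the deposited log values the closest pair was Ctsb and Ctsd in all 4 culture libraries (0.655 to 0.8).

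Some pairs differed in sign between the cultures. Ctsd and Ctsh were at -0.215 and -0.196 in B-MF but at 0.275 and 0.276 in Mo-MF. Ctsb and Ctsh were at -0.121 and -0.107 against 0.175 and 0.207. In monocyte/macrophage-like cells alone Ctsd and Ctsh were at -0.217 and -0.198 in B-MF against 0.189 and 0.199, and Ctsb and Ctsh at -0.123 and -0.108 against 0.068 and 0.121. These differences of rho were not tested.

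In the tumor the closest pair over all cells was Ctsc and Ctss (0.606 to 0.697). The same pair was at 0.229 to 0.27 in monocyte/macrophage-like tumor cells, 0.0325 and 0.0622 for B-MF, with -0.0795 and -0.066 for Mo-MF. In monocyte/macrophage-like tumor cells the closest pair was Ctsb and Lgmn (0.561 to 0.628). Cst3 had the lowest values there, with a median rho to the other 9 genes of -0.0422 to -0.0114. Over all tumor cells, Ctsd had a median rho near 0 (at most 0.0256), while those of the other 9 genes were 0.177 or more.

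**Figure D4:**
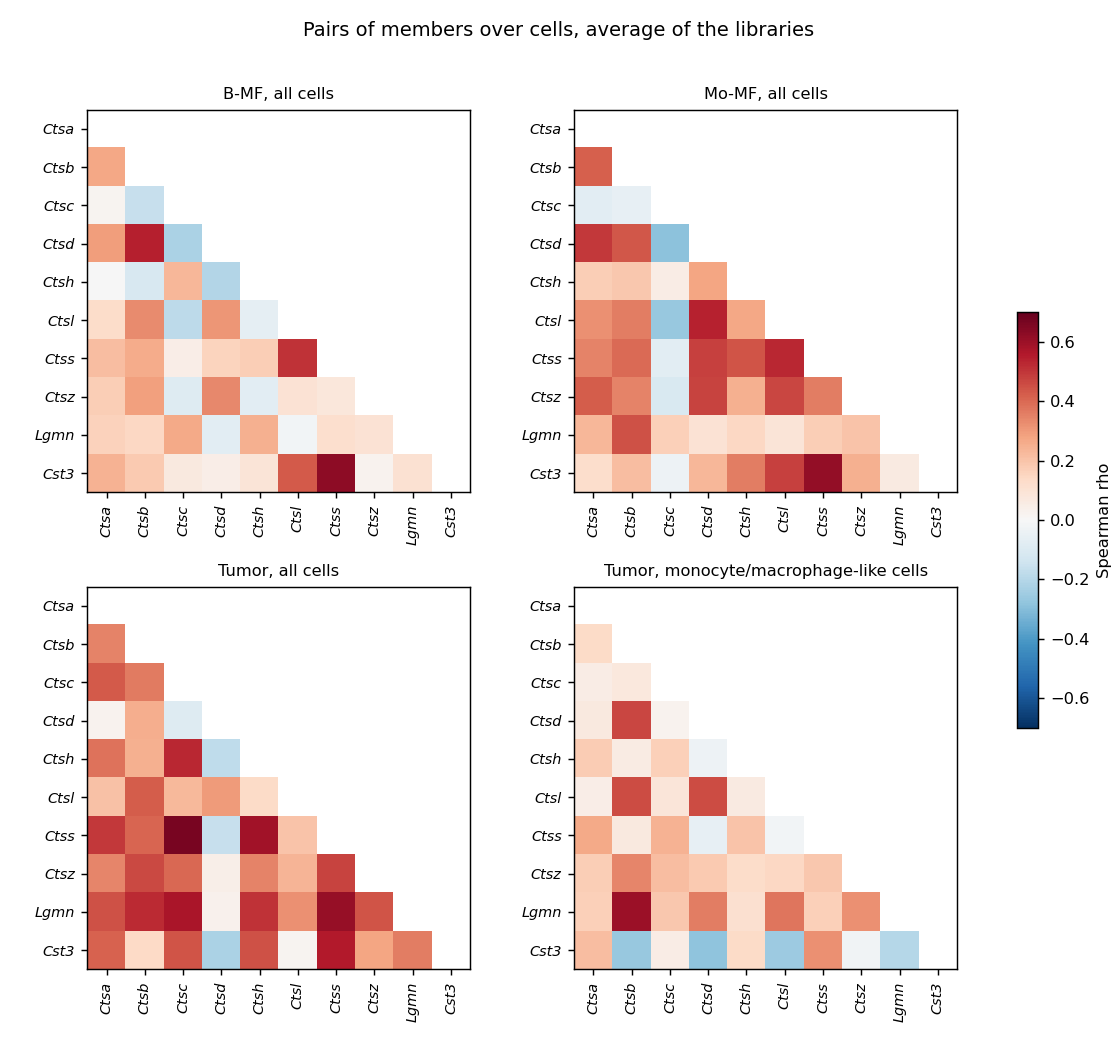
Spearman's rho over cells for each pair of the 10 genes, averaged over the 2 libraries of B-MF and of Mo-MF and over the 4 tumor libraries, for all cells and, in the last panel, for monocyte/macrophage-like tumor cells. Red is positive and blue negative. Ctss and Cst3 are the darkest square in both cultures, Ctsc and Ctsd are blue there, and the Cst3 row turns partly blue in monocyte/macrophage-like tumor cells.

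The genes that followed the average of the 10 most closely differed between cultures and tumor. In B-MF they were H2-D1 (rho 0.522 and 0.557), Itm2b, Cyba, Tyrobp and H2-K1 among 8293 genes. In Mo-MF they were Itm2b (0.593 and 0.598), Npc2, Cyba, Fabp5 and H2-D1 among 8565. In the tumor they included Psap (0.728 to 0.785), Npc2, Ms4a6d and Anxa5 among 5444 genes, and in its monocyte/macrophage-like cells Apoe (0.383 to 0.522), Cd68, Grn, Ftl1 and Dab2 among 6069. Psap, Npc2, Grn and Cd68 encode proteins of the lysosome.

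At the chromatin level, all 10 genes had an ATAC-seq peak within 1000 bases of the gene's start in all 12 libraries, as did 47.9% of 21951 protein-coding genes. Peaks had been called by the authors in each library, which held 43407 to 76530 of them, with fewer in spleen (43407 to 50392) than in BM (65832 to 76530). The paper gives the reads in total and on average, but the depth of each library is not known. Each of the 4 promoters printed above overlapped a peak in all 12 libraries. Of the 2 RefSeq starts of Lgmn, the one at chr12:102439679-102439978 overlapped a peak in 12 libraries and the one at chr12:102439043-102439342, which holds the CACGTG, in 0.

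Lgmn and Ctsl had the strongest peaks. The fold enrichment at Lgmn was 28.8 to 30 in BM and 32.3 to 35.1 in spleen, above 99.6% or more of the peaks of each library. At Ctsl it was 25.3 to 25.9 in CSF1R+ and 27.5 to 28.7 in CSF1R- cells of BM, and 30.7 to 32.4 and 26.4 to 32.4 in spleen. Ctsz (6.14 to 11.3) and Ctss (7.21 to 14.6) had the weakest, except in library 1 of CSF1R- cells of BM, where Ctss (14.6) lay above Cst3 (13.4).

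The fold enrichments of CSF1R+ and CSF1R- libraries overlapped in most gene and tissue sets. They did not overlap at 4 of the 10 genes in BM and at 3 in spleen. Over all protein-coding genes with a peak in the 6 libraries of a tissue, they did not overlap at 27.3% of 11840 genes in BM and 16.4% of 10639 in spleen. Of these genes, 111 of 3236 in BM and 1672 of 1745 in spleen were higher in CSF1R+ libraries. By this measure the tissues ran in opposite directions, and the members followed those directions. The paper tested regions with DESeq2 instead, and reported more open chromatin in BM CSF1R+ cells and no spleen difference past its threshold. Fold enrichment is a ratio to the background of each library, so it is not the same measure. At Ctsa the ranges were 11.3 to 12.7 in CSF1R+ against 12.9 to 14.9 in CSF1R- libraries of BM, and 14.2 to 15.2 against 11.9 to 12.7 in spleen. The others apart in BM were Ctsd (15.7 to 17 against 17.3 to 19.7), Ctsl (25.3 to 25.9 against 27.5 to 28.7) and Ctsc, whose ranges both reach 17.5 when rounded. Those apart in spleen were Ctsh (25.4 to 28.2 against 23.2 to 24.7) and Ctss (8.59 to 10.5 against 7.21 to 8.55). When peaks were ranked within their own library, the ranges of all these genes overlapped in BM, as did Ctsh and Ctss in spleen. Only Ctsa in spleen stayed apart, at percentiles of 65.4 to 73.7 in CSF1R+ against 60.4 to 64.2 in CSF1R- libraries. Nothing particular to the 10 genes is read from these counts. No test was run on these values.

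**Figure D5:**
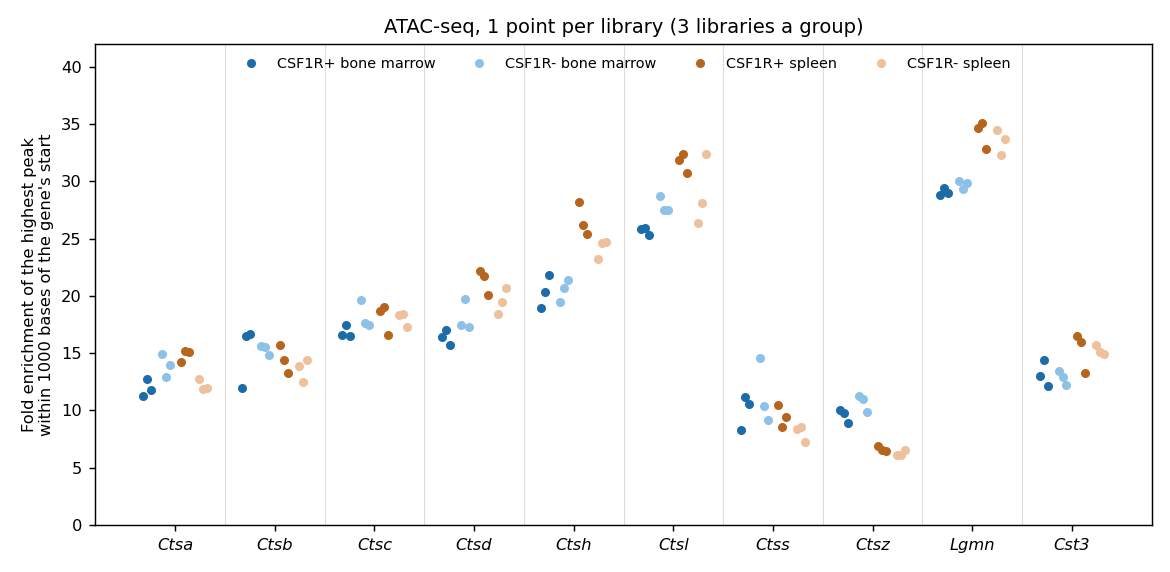
Fold enrichment of the highest ATAC-seq peak within 1000 bases of the start of each gene, with 1 point per library in 4 groups of 3 libraries. Every gene has a point in all 12 libraries, Lgmn and Ctsl lie highest, and Ctsz and Ctss lowest but for 1 CSF1R- point of BM (Ctss at 14.6).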

How the data were processed

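Per the labels, reads were processed with Cell Ranger and STAR (scRNA-seq) and with cutadapt, BWA and MACS2 (ATAC-seq, mm10). The labels name a Chromium Genome kit for scRNA-seq, and the study's methods a 3′ single-cell kit. The deposited scRNA-seq tables hold natural log values, ln(count + 1), of UMI counts that the authors had corrected with SCTransform in 2 separate tables. The deposited ATAC-seq peak lists, called by the authors in each library, give a fold enrichment (ratio to the background) and a −log10 q-value. Depth before correction and the reads behind the peaks of each library are unknown.

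Values were converted back to corrected counts, which lay within 5.64e-11 (culture) and 0.00196 (tumor, written with few decimals) of whole numbers. These are not raw counts, so library means, log2(mean + 0.1), were tested with limma 3.58.1 (R 4.3.3) over genes with a mean over the 4 libraries of at least 0.1, all cells of a library being 1 replicate. A pseudocount of 0.1 understates the change of low genes. Cells were clustered with scanpy 1.11.5 and leidenalg 0.10.2 (2000 variable genes, 30 components, 20 neighbours, resolution 0.5) without the 10 genes and the listed genes (73 in all). No doublet caller was run, and a class needed 10 cells in a library. Labels for clusters came from marker lists. A type needed at least 3 markers, and at least 50% of its list, above the average of clusters. Where no type met this, macrophage needed 6 of 8 markers at a mean of 1. Clusters named macrophage or monocyte formed the monocyte/macrophage-like class, and a name was withheld where leading genes marked another type. The limma step was tested on simulated data.

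The members and lists were chosen with earlier results of these data known, and the 3 motifs after the promoters had been read. The text names the 10 genes, at most 2 genes of each list in each direction with the largest differences past the test, list genes with the most counts in a described class, and the 5 genes most like the average of the 10. Not every gene that this rule takes is reported here. Alternatives were other pseudocounts and filters, scalings, the deposited logs, a replicate block, cell classes, cluster settings and leaving out each library. B-MF 1 and Mo-MF 1 deviated from their group means with r = 0.126 over 8633 genes. With 2 libraries a group this single value cannot decide whether libraries of the same number are paired. The main fit used no pairing. GENCODE and RefSeq gene starts on GRCm38 were used, and no values are given here under the names Ifi30, Ctsw and Cstdc4.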

Additional observations from a re-analysis of the deposited data

Results flagged for a closer look

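In tumor library 2, the ratio of Ctsa in monocyte/macrophage-like to neutrophil-like cells was 3.26, apart from the other 3 libraries (2.68 to 2.74). The mean of Ctsz over all tumor cells was 6.54 in library 2 against 4.67 to 4.83 in the others, and over monocyte/macrophage-like cells it was 7.74 against 6.26 to 6.41. The mean of Cst3 over monocyte/macrophage-like cells was 11.7 in library 5 against 11 to 11.1 in the others. In each, the gap to the nearest library exceeded the limit set by Dixon's test for 4 values, which chance passes in about 1 of 20 sets, and 42 sets were checked.

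Ctsc and Ctsd differed between culture and tumor in their direction between monocyte/macrophage-like and neutrophil-like cells. The mean of Ctsc was lower in the monocyte/macrophage-like cells of both Mo-MF libraries and higher in those of all 4 tumor libraries, with a difference of mean log2 ratios, Mo-MF minus tumor, of -3.18. Its median was 2 in both classes of both Mo-MF libraries, so there the direction is that of the means. Ctsd was higher in both Mo-MF libraries and lower in all 4 tumor libraries, with a difference of 1.35. Neither difference was tested, and the 2 tables were normalised separately.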

How the results depend on the processing

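Ctsc, Ctsh, Ctsl and Ctss passed the test in all 15 alternatives run for them, in the same direction. The number of the 10 genes that passed, 8, ranged from 4 to 8 when 1 library was left out, that of higher genes (3) from 1 to 3 and that of lower genes (5) from 3 to 5, and the low ends came from leaving out Mo-MF library 1 (4, 1 and 3) or 2 (5 in all and 1 higher). The share of all genes that passed moved with them, from 39.5% to 23.2% and 24.7% without Mo-MF library 1 or 2, and to 60.5% and 63.5% without B-MF library 1 or 2. In monocyte/macrophage-like cells 1 gene was higher, and also 1 without the cluster led by Malat1 and Tsix, an alternative chosen after seeing the data. Ctsb turned to 0.05 (limma adjusted p = 0.0636) when deposited logs were averaged, where Cst3 passed (0.06, limma adjusted p = 0.0244), and Cst3 turned to -0.01 in monocyte/macrophage-like cells. Genes of the lists that passed went from 32 to 17 with a mean of at least 1, where fewer genes are tested, and both counts hold stefins that passed the filter only through Mo-MF (6 of the 32 with Ctse, which leaves 26). With the replicate block 8 of the 10 genes passed as well, beside 45.3% of all genes. Whether libraries that share a number are paired is not known. The median rho of the pairs, averaged over libraries, moved in B-MF from 0.129 to 0.184 with Pearson's r on logs, in Mo-MF from 0.252 to 0.389 with Pearson's r, 0.185 in monocyte/macrophage-like cells and 0.234 per total count, and in the tumor from 0.356 to 0.139 in monocyte/macrophage-like cells. The causes of these shifts were not tested. Of all values compared, 587 stayed the same, 23 moved, 2 reversed, 2 gained the call and 23 lost it. For tested genes the same means an equal direction and call. For counts of genes it means within a set fold, and for rho and tumor log2 ratios within the SD between libraries. The 9 genes higher and 1 lower in tumor monocyte/macrophage-like cells, and the 10 genes with a peak in 12 libraries, were found under every alternative run for them. With 2 libraries a group, the precision of limma rests on the spread shared across genes, and the depth of each ATAC-seq library is unknown.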
